A study of Mus musculus with 8 samples.

Results

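The accessible chromatin of EBF1-dTAG_N and EBF1-dTAG_C pro-B cells was compared in the absence of the degrader dTAG-13, from the 2 DMSO peak lists of each line. Peaks of the 4 lists that overlapped by at least 1 bp were merged into 58884 regions, of 68406 regions over all 8 lists of the series. Of the 58884 regions, 3522 (5.98%) had a peak in both EBF1-dTAG_N lists and in neither EBF1-dTAG_C list, and are called N-only. The reverse pattern, called C-only, held 3190 regions (5.42%). A further 26863 regions (45.6%) had a peak in all 4 lists and are called shared, and 25309 regions had other patterns. Membership of these classes was set by the presence of a peak, so the counts are a description with no test. At the shared regions the lines were compared by the log2 ratio, N over C, of the fold enrichment at the peak summit.

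Both lines are mouse pro-B cells transformed by Abelson murine leukaemia virus (A-MuLV), in which the endogenous EBF1 was replaced by an exogenous modified gene carrying a dTAG degron, as the names of the genotypes give it. The groups compared here received DMSO, the solvent, for 6 h; the sample titles call them 0 h, and the treatment label was followed. The other libraries of the same lines received 0.5 uM dTAG-13 for 6 h, and serve below only as libraries that the choice of regions did not use. The labels do not say whether a line is 1 clone or many, or whether the lines come from the same mouse, and a difference between the lines cannot be told apart from a difference between such clones. The series calls the 2 libraries of a condition biological replicates; no culture or animal is named, so p-values measure the spread between these libraries.

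EBF1 is a transcription factor that commits progenitors to the B cell lineage, opens chromatin at B lineage enhancers and acts with PAX5 and the E proteins. It binds as a dimer to a palindromic motif. ATAC-seq maps open chromatin, as the Tn5 transposase inserts sequencing adapters into DNA that nucleosomes do not cover. In the dTAG system the tagged protein is degraded once dTAG-13 is added, so that in DMSO both lines are meant to keep their EBF1; its level was not measured by these data.

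The upstream bases of 6 gene starts covered by line-only or called shared regions are printed here, because at these starts the peak itself differed between the lines. Each line gives the 250 bases before the start listed by RefSeq (GRCm38.p6), 5′ to 3′ on the gene's strand. Capitals mark the EBF1 palindrome, TCCC and GGGA with 2 bases between them, where the bases hold it, and otherwise its inner part, CCC and GGG with 2 bases between them. Ninl and Irak3 are shown because they are N-only starts with the full palindrome, Fetub and Gadd45a because they are called shared starts with the inner part, and Bicd1 and Fzd7 because their line-only peaks were among the strongest.
Bicd1, chr6:149408734-149408983, plus strand: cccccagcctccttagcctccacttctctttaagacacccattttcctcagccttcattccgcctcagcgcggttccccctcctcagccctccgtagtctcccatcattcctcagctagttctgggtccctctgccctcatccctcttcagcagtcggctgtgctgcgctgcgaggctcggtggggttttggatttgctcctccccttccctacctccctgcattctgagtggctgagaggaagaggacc
Ninl, chr2:151009399-151009648, minus strand: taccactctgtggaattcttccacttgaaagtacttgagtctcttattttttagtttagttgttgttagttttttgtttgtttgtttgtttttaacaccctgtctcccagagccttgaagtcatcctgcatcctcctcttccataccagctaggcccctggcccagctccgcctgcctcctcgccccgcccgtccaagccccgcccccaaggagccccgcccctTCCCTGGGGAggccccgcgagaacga
Irak3, chr10:120201598-120201847, minus strand: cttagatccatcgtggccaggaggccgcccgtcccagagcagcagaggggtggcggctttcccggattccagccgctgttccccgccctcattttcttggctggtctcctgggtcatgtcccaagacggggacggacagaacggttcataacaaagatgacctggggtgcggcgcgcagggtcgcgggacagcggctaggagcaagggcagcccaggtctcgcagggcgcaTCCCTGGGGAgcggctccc
Fetub, chr16:22919972-22920221, plus strand: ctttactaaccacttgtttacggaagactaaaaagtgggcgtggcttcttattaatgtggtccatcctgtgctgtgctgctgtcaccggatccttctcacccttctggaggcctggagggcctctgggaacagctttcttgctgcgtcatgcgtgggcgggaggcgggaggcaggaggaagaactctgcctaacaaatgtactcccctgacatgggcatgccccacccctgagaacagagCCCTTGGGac
Gadd45a, chr6:67037408-67037657, minus strand: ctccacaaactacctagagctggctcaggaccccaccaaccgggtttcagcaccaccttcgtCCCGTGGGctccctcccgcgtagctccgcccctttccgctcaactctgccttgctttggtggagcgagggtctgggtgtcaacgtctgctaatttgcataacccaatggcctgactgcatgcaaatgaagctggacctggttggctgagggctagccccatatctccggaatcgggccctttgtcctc
Fzd7, chr1:59481897-59482146, plus strand: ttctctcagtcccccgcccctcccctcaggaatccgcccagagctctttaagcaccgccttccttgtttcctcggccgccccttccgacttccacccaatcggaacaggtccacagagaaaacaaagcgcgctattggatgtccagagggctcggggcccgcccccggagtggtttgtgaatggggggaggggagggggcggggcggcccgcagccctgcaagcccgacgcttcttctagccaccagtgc

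In Ninl, which encodes a centrosomal protein, the palindrome began 26 bases before the start, and in Irak3, which encodes a brake on Toll-like receptor signalling, 19 bases before it. Both matches lay inside the N-only region. The Ninl region had a summit fold enrichment of 12.8 and 13.6 in the EBF1-dTAG_N libraries (replicates 1 and 2), and the Irak3 region of 10.3 and 5.71, with no peak in either EBF1-dTAG_C list. The inner part in Fetub began 10 bases and that in Gadd45a 188 bases before the start, also inside the region. At Gadd45a, a growth arrest and DNA damage gene, the EBF1-dTAG_C libraries gave 8.52 and 9.73 and the EBF1-dTAG_N libraries 22.4 and 26.4. Its log2 ratio was 1.32 ± 0.206 (SE; limma, adjusted p = 0.0170). No such match was found in the bases of Bicd1 and Fzd7.

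Over all listed starts covered by a class, the palindrome stood in the 250 bases of 3 of 130 N-only starts (2.31%) and 2 of 159 C-only starts (1.26%). The third N-only start was Olfr108, and the C-only starts were Tmem237 and Ankrd63. The share was 0.849% of the 9303 starts at shared regions that were not called and 0.779% of all 32851 listed starts. None of the 16 starts of regions called higher in EBF1-dTAG_N and none of the 37 called higher in EBF1-dTAG_C held it. The inner part stood in 6 of 16 (37.5%) and 9 of 37 (24.3%) of those starts, in 14.6% of N-only and 17.6% of C-only starts, in 15.6% of starts at shared regions not called, and in 11.8% of all listed starts. Both motifs read the same on either strand, and every palindrome holds the inner part. These are counts of letters in a fixed window, over few starts in the called classes.

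Read totals are not in the lists, so depth is known only through a proxy. The lowest background pileup, solved from the deposited values of each peak, was 0.405 ± 0.00552 (SD, n = 2) in EBF1-dTAG_N and 0.337 ± 0.00937 (SD, n = 2) in EBF1-dTAG_C, 19.9% higher in N. The part of this difference in the counts below was not tested. Of 10 pro-B markers, 10, 9, 10 and 10 had a peak within 10 kb in C replicates 1 and 2 and N replicates 1 and 2, with Rag1 without one in C replicate 2. The median of the highest summit value per marker was 17.1 to 17.9. Of 7 T cell markers, 2 had a peak in each C library and 3 in each N library, and Cd3e, Cd8a, Bcl11b and Thy1 had none. Cd3d and Gata3 had a peak in every library, with 21.5 to 27.7 and 19.1 to 24.9, and Cd4 in the N libraries only. Of 6 myeloid markers, 2 had a peak in each C library and 1 in each N library, and Cebpa, Lyz2, Mpo and Elane had none. Itgam had a peak in every library, with 17.2 to 29.2, and Csf1r in the C libraries only. Of 4 erythroid markers, 3 had a peak in both C libraries and N replicate 1 and 1 in N replicate 2; that 1 was Klf1, with 24.4 to 29.2.

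The number of peaks was close in the lines, 40889.5 ± 1023 (SD, n = 2) in EBF1-dTAG_N and 41289.5 ± 1201 (SD, n = 2) in EBF1-dTAG_C. The lists held 41613 and 40166 peaks in N and 40440 and 42139 in C, so the lines overlapped. The difference of -400 peaks gave p = 0.667 in an exact permutation test (two-sided, 2 libraries against 2, where the smallest possible p is 0.333). Its sign turned with the stringency: with −log10 q of at least 5 EBF1-dTAG_N had 1869.5 peaks more, and with at least 10 it had 2447 more (exact permutation p = 0.333 for both). It also turned without EBF1-dTAG_C replicate 2 (449.5 more in N) and without EBF1-dTAG_N replicate 2 (323.5 more in N). The median summit fold enrichment of all peaks was 10.9 ± 0.143 in N and 10.0 ± 0.334 in C (SD, n = 2), with both N libraries above both C libraries (exact permutation p = 0.333).

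Line-only regions were mostly weak. The median summit fold enrichment of N-only regions was 7.38 and 7.36 in the EBF1-dTAG_N libraries, and that of C-only regions was 7.44 and 7.27 in the EBF1-dTAG_C libraries. Shared regions had medians of 13.8 and 13.5 in C and 14.9 and 14.2 in N. Only 153 N-only and 153 C-only regions reached, in their weaker library, the median of the shared regions. Both peaks had a −log10 q of at least 10 in 1310 N-only regions (37.2%) and 838 C-only regions (26.3%). At the edge of the rule, 3966 regions had a peak in both N lists and 1 C list, with a median of 6.70 in that 1 list, and 2758 had a peak in both C lists and 1 N list, with a median of 7.14.

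The counts rose when a library was left out, since a single list then stood for its line. N-only regions numbered 6369 without N replicate 1, 7061 without N replicate 2, 5090 without C replicate 1 and 5936 without C replicate 2. C-only regions numbered 7993 and 7391 without C replicates 1 and 2, and 4782 and 4372 without N replicates 1 and 2. Restricted to peaks with a −log10 q of at least 10, the counts were 3169 N-only and 1645 C-only regions.

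The strongest N-only region lay inside Cnot10, a subunit gene of the CCR4-NOT deadenylase (chr9:114614232-114614573), with 26.4 and 25.5 in the EBF1-dTAG_N libraries. Inside Plxna2, a semaphorin receptor gene (chr1:194660488-194660873), both N libraries gave 25.4. A region inside Tmeff2 (chr1:51104677-51105046) gave 26.9 and 24.5. A region inside 2900026A02Rik gave 22.7 and 29.0, one 53.7 kb from Klf4, a Krüppel-like factor gene, gave 23.2 and 22.3, and one 508 kb from Fam174a gave 24.0 and 26.7. At the start of Bicd1, a dynein adaptor gene whose upstream bases are printed above, the values were 23.5 and 22.3, and at the start of Gm9222 they were 22.5 and 22.0. None of these 8 regions had a peak in either EBF1-dTAG_C DMSO list.

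The strongest C-only region lay inside Bcr, the gene known as the fusion partner of ABL1 in human leukaemia (chr10:75146025-75146398), with 27.5 and 22.3 in the EBF1-dTAG_C libraries. The start of Fzd7, a Wnt receptor gene (chr1:59481790-59482239), gave 22.6 and 22.1. Regions inside Rab7b, a small GTPase gene, and Kcnk13, a potassium channel gene, gave 22.4 and 19.7, and 20 and 19.4. Regions 30.6 kb from Nabp1, 2.19 kb from Col15a1 and 157 kb from B3gnt2 gave 20.6 and 22.9, 20.1 and 19.2, and 19.0 and 21.3. None of these 7 regions had a peak in either EBF1-dTAG_N DMSO list.

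**Figure D1:**
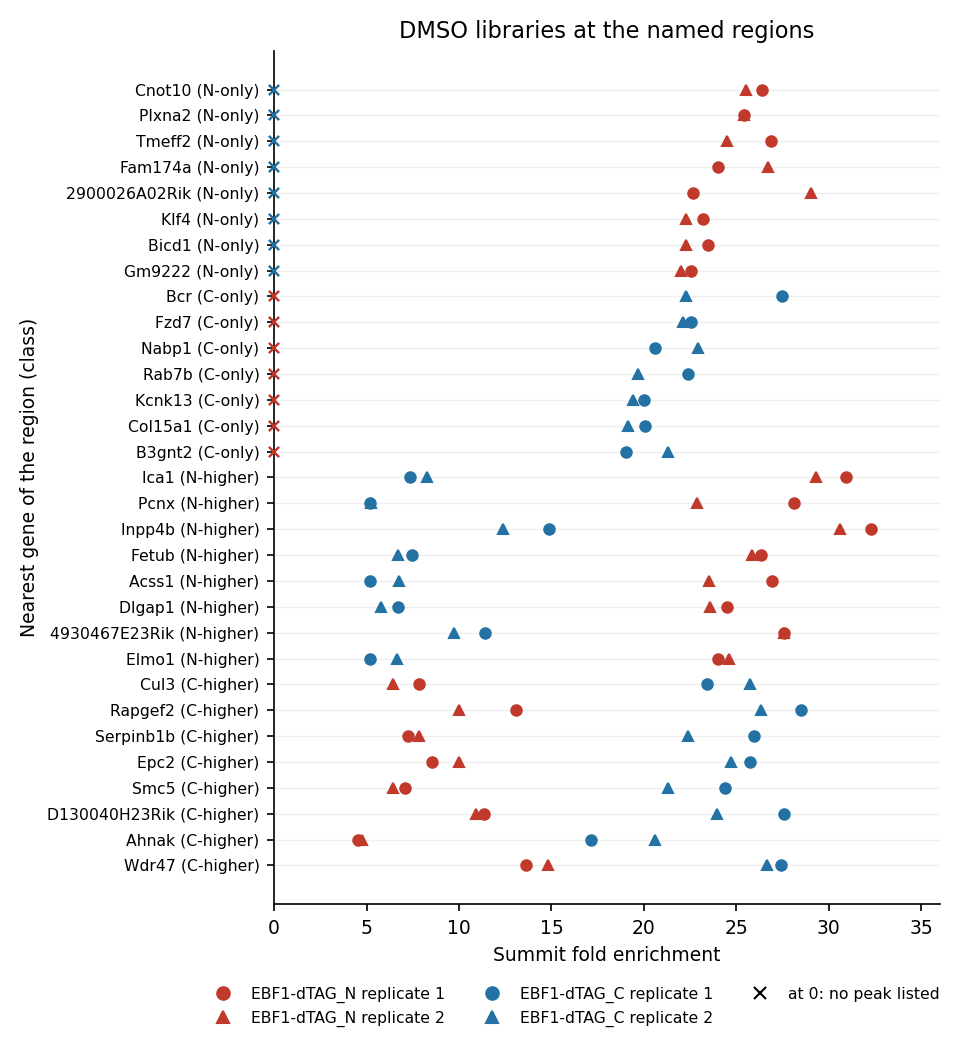
Summit fold enrichment (x axis, linear) of the 4 DMSO libraries at the 31 regions named here from the 4 classes (y axis, nearest gene). Red marks EBF1-dTAG_N and blue EBF1-dTAG_C, circles replicate 1 and triangles replicate 2, and a cross at 0 marks no listed peak. At Pcnx the C libraries sit at 5.21 and 5.26 and the N libraries at 28.1 and 22.9. The named regions were chosen so that the lines do not overlap.

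At shared regions, few regions passed the adjusted test in either direction. The log2 ratio, centred on each library's median, had a median of -0.05 and an SD of 0.388, with 5th and 95th percentiles of -0.60 and 0.69 and extremes of -2.12 and 2.18. The SD between replicate libraries was 0.272 in EBF1-dTAG_C and 0.221 in EBF1-dTAG_N. Before centring, the log2 ratio of the mean fold enrichments had a median of 0.04 and extremes of -2.03 and 2.28. Of the 26863 regions, limma called 334 higher in EBF1-dTAG_N (1.24%) and 205 higher in EBF1-dTAG_C (0.763%), together 2.01%, at an adjusted p under 0.05. An unadjusted p under 0.05 was reached by 5050 shared regions (18.8%). The libraries of the lines did not overlap in any of the 539 called regions, nor in 50.5% of all shared regions. The median ratio was 2.3-fold among the 334 regions called higher in N and 2.15-fold in the other direction among the 205 called higher in C. An absolute log2 ratio of at least 1 was reached by 241 of the regions called higher in N and 120 of those called higher in C. The smallest called differences, 0.31 for N and -0.13 for C on the log2 scale, belong to regions of high fold enrichment.

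These calls rest on how the spread is modelled and on single libraries. Without centring, 630 regions were higher in N and 140 in C. With a spread prior that does not follow the mean (limma without trend), no region was called, although 4517 had an unadjusted p under 0.05. The counts for N and C were 52 and 130 without N replicate 1, 34 and 119 without N replicate 2, 770 and 311 without C replicate 1, and 1300 and 601 without C replicate 2. In those fits the lone library of a line was assumed to vary like the others. With the summit pileup in place of the fold enrichment, 1730 and 1438 regions were called.

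**Figure D2:**
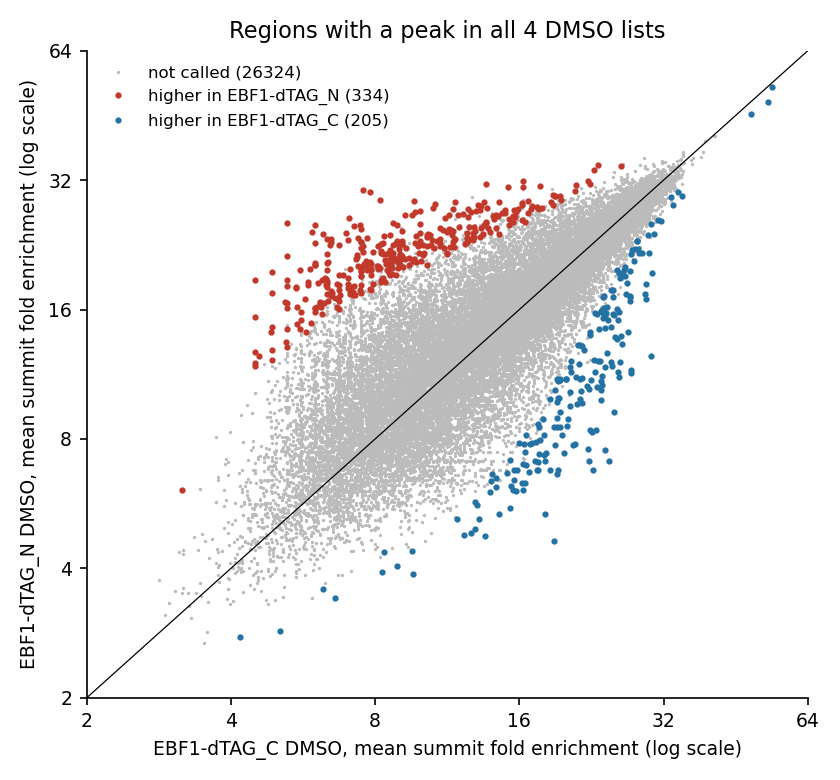
Mean summit fold enrichment in the 2 EBF1-dTAG_C DMSO libraries (x axis, log scale) and the 2 EBF1-dTAG_N DMSO libraries (y axis, log scale) at the 26863 shared regions, each point a region and the line equality. Red points are the 334 regions called higher in N and blue points the 205 called higher in C; grey points, the other regions, follow the line.

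The 16 shared regions named by the smallest adjusted p all had an adjusted p of 0.0142 in limma, with SEs of 0.130 to 0.274 on the log2 scale. Higher in EBF1-dTAG_N was a region inside Pcnx (chr12:81883272-81883693), with 5.21 and 5.26 in C and 28.1 and 22.9 in N, a log2 ratio of 2.18. A region 11.5 kb from Ica1, an islet cell autoantigen gene (chr6:8790073-8790509), had 7.35 and 8.27 in C and 30.9 and 29.3 in N, a log2 ratio of 1.85. Inside Inpp4b, an inositol polyphosphate phosphatase gene (chr8:81888863-81889219), the values were 14.9 and 12.4 in C and 32.3 and 30.6 in N, a log2 ratio of 1.12. At the start of Fetub, a fetuin gene known from liver, whose upstream bases are printed above, they were 7.44 and 6.69 in C and 26.4 and 25.9 in N, a log2 ratio of 1.79. Regions inside Acss1, a mitochondrial acetyl-CoA synthetase gene, and 4930467E23Rik had log2 ratios of 1.99 and 1.29, the latter not called without N replicate 2 (limma, adjusted p = 0.05003). Regions 74.6 kb from Dlgap1, a synaptic scaffold gene, and 10.4 kb from Elmo1, a partner of DOCK proteins in Rac activation, had log2 ratios of 1.86 and 1.95. That both N libraries lay above both C libraries in each of the 8 was a condition of their choice.

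Higher in EBF1-dTAG_C, the widest ratio lay inside Ahnak, a large scaffold protein gene (chr19:9071474-9071876), with 17.1 and 20.6 in C and 4.52 and 4.74 in N, a log2 ratio of -2.12. A region 61.3 kb from Cul3, a ubiquitin ligase scaffold gene (chr1:80401979-80402321), had 23.4 and 25.7 in C and 7.81 and 6.43 in N, a log2 ratio of -1.89. Inside Smc5, a gene of a chromosome maintenance complex (chr19:23246560-23246941), the values were 24.4 and 21.3 in C and 7.1 and 6.43 in N, a log2 ratio of -1.85. Regions 9.98 kb from Serpinb1b, a protease inhibitor gene, and 33.4 kb from Epc2, a chromatin regulator gene, had log2 ratios of -1.78 and -1.55. Regions inside Rapgef2, a Rap activator gene, and Wdr47, and at the start of D130040H23Rik, had log2 ratios of -1.35, -1.02 and -1.30. That both C libraries lay above both N libraries in each of these 8 was likewise a condition of their choice.

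The classes lay at different places. A listed gene start was overlapped by 27.3% of shared regions that were not called, but by 3.24% of N-only, 4.42% of C-only and 4.19% of regions called higher in N. Regions called higher in C overlapped one in 16.1% of cases, all regions in 14.1%, and regions of other presence patterns in 3.22%. Farther than 100 kb from any protein-coding gene lay 9.40% of N-only, 7.15% of C-only, 16.8% of N-higher and 7.32% of C-higher regions. The share was 4.10% of shared regions not called, 7.22% of regions of other patterns and 6.01% of all regions. Inside a gene span lay 52.9% of N-only and 54.2% of C-only regions, 53.2% of regions of other patterns and 48.0% of all regions. These shares are descriptions over regions, which are not replicates of a line.

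The dTAG-13 libraries of the same lines, which the choice of regions did not use, held peaks at these regions more often in the line that had them in DMSO. N-only regions had a peak in 32.4% and 37.8% of cases in the 2 EBF1-dTAG_N dTAG-13 lists, and in 12% and 9.88% in the 2 EBF1-dTAG_C lists. The difference of the means was 24.2 percentage points, 35.1 ± 3.85 against 10.9 ± 1.51 (SD, n = 2). C-only regions had a peak in 57.1% and 61.0% of cases in the C lists and in 25.2% and 32.3% in the N lists, a difference of -30.3 percentage points, N minus C. N-higher regions had a peak in 52.4% and 56% in N and in 35.6% and 30.8% in C. C-higher regions had one in 90.7% and 94.6% in N and in 97.1% in both C lists. In each class the libraries of the lines did not overlap, which gives an exact permutation p = 0.333, the smallest that 2 libraries against 2 allow. Shared regions not called had shares of 87.0% and 89.5% in N and 84.1% in both C lists. Over all regions the shares were 55.2% and 59.8% in N and 53.3% and 53.4% in C. The lines did not overlap there either, with the same exact permutation p = 0.333. The lack of overlap is therefore not particular to the line-only and called classes.

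The classes differed in how often their peaks were listed at all after dTAG-13. No dTAG-13 list of either line held a peak at 1899 N-only regions (53.9%), 609 C-only regions (19.1%), 37.7% of N-higher and 1.46% of C-higher regions, against 6.73% of shared regions not called and 26.9% of all regions. The full pattern, both lists of one line and neither of the other, was repeated in 542 N-only regions (15.4%) and reversed in 6. It was repeated in 709 C-only regions (22.2%) and reversed in 61. Over all regions, 4.53% had the N pattern and 2.71% the C pattern in the dTAG-13 lists. The dTAG-13 libraries differ from the DMSO libraries in treatment, and the lines differ in background, with a lowest background pileup of 0.348 and 0.372 in N and 0.229 and 0.258 in C. The part of either was not tested.

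**Figure D3:**
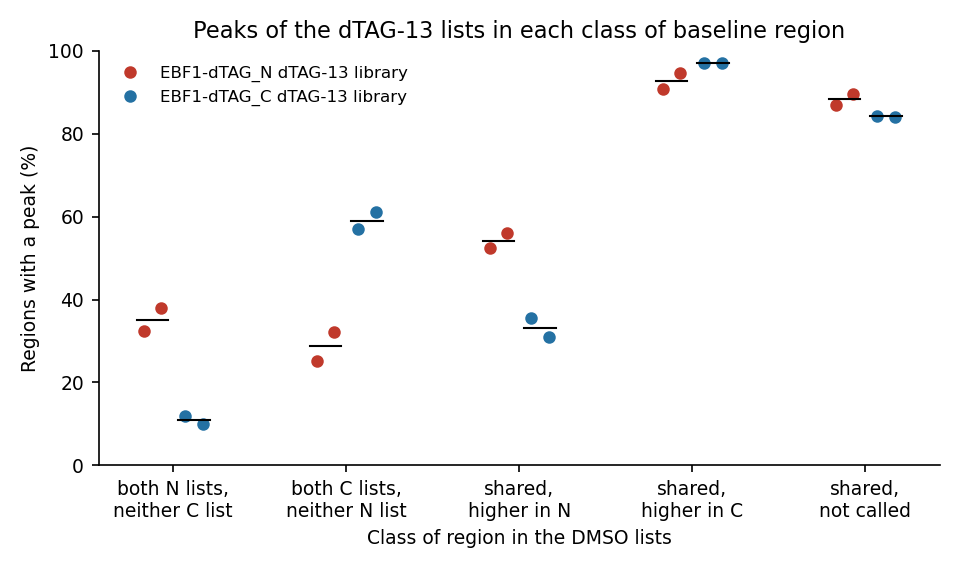
Percent of regions (y axis) with a peak in each dTAG-13 library (points; red EBF1-dTAG_N, blue EBF1-dTAG_C; bars, mean of 2 libraries) for the 5 classes of baseline region (x axis). The N-only class sits at 32.4% and 37.8% in N against 12% and 9.88% in C, and the C-only class has the opposite order.

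Where a called shared region had a peak in all 4 dTAG-13 lists, the ratio kept its sign in nearly all cases. This held for 83 of 85 N-higher regions, with a median log2 ratio of 0.78 after dTAG-13 and 1.01 in DMSO, and for 173 of 183 C-higher regions, with medians of -0.54 and -1.05. Of the 20073 shared regions not called, 43.6% were higher in N. The 85 N-higher regions are those with peaks strong enough to be listed in every library, and are not all 334.

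At the named regions, all 8 C-higher regions had a peak in all 4 dTAG-13 lists, as did 183 of all 205 C-higher regions. In all 8 both C libraries lay above both N libraries. These 8 were picked by the smallest adjusted p in DMSO, where the lines did not overlap in 50.5% of all shared regions. The share without overlap in the dTAG-13 lists was not counted over all shared regions. At Cul3 the values after dTAG-13 were 19.4 and 23.2 in C and 11.8 and 13.1 in N, and at Ahnak 15.1 and 20.9 in C and 7.29 and 6.08 in N. Of the 8 N-higher regions, 5 had no peak in any dTAG-13 list, among them Ica1, Pcnx and Inpp4b. Fetub had 14.6 and 21.2 in the N libraries after dTAG-13 and no peak in C. All 7 named C-only regions had a peak in both C dTAG-13 lists, with 25.1 and 25.2 at Bcr, and 4 of them had none in either N list. Of the 8 named N-only regions, 6 had a peak in both N dTAG-13 lists, with 21.3 and 24.3 at Tmeff2 but 6.55 and 8.54 at Cnot10, and 1, Plxna2, also had one in both C lists.

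The authors' comparison of dTAG-13 with DMSO in each line uses these same DMSO libraries, so its folds are given side by side and not as support. Of all regions in the authors' deposited tables, 18.5% fell and 18.8% rose in the N line, and 6.62% fell and 0.308% rose in the C line, at the deposited adjusted p under 0.05. In the authors' deposited tables, 250 of the 334 N-higher regions (74.9%) fell in EBF1-dTAG_N and 134 (40.1%) fell in EBF1-dTAG_C. Of the 205 C-higher regions, 15 fell and 91 (44.4%) rose in EBF1-dTAG_N, and 18 fell in EBF1-dTAG_C, in the authors' deposited tables. Shared regions not called fell in 19.95% (N) and 11.3% (C) of cases in the authors' deposited tables. Of the N-only regions, 1720 (48.8%) fell in the EBF1-dTAG_N table, and of the C-only regions 67 (2.10%) fell in the EBF1-dTAG_C table, both from the authors' deposited tables. The median log2 fold change of N-only regions in the authors' deposited EBF1-dTAG_N table was -0.88, and that of C-only regions in the EBF1-dTAG_C table was 0.12. A high DMSO value in a shared library lowers the fold after dTAG-13 by construction.

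Genes of the B cell programme were examined from lists, each region being assigned to the nearest protein-coding gene within 100 kb. Over the 55307 regions so assigned, 5.77% were N-only and 5.34% C-only, and the median log2 ratio at shared regions was -0.06. Among 27 B lineage transcription factor genes, 42 of 447 regions were N-only (9.40%) and 19 C-only (4.25%), over 20 and 13 of the genes. The shared regions had a median ratio of -0.01. Of their 212 shared regions, 2 were called higher in N and 2 higher in C, where 1.24% and 0.763% of all shared regions were.

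Ikzf3, which encodes Aiolos, had a region inside the gene (chr11:98484374-98484742) with 5.15 and 9.46 in C and 22.9 and 19.0 in N. Its log2 ratio was 1.48 ± 0.307 (SE; limma, adjusted p = 0.0400), and no dTAG-13 list held a peak there. Inside Bach2, a repressor that holds back plasma cell differentiation (chr4:32291380-32291786), the values were 8.93 and 9.02 in C and 23.1 and 19.2 in N, a log2 ratio of 1.14 ± 0.212 (SE; limma, adjusted p = 0.0281). In the opposite direction, the start of Runx1, a core haematopoietic factor (chr16:92825852-92826319), had 24.7 and 23.8 in C and 16.1 and 15.3 in N, a log2 ratio of -0.73 ± 0.131 (SE; limma, adjusted p = 0.0265). A region inside Ets1 had 27.7 and 24.8 in C and 21.3 and 17.3 in N, a log2 ratio of -0.55 (limma, adjusted p = 0.0454), which was not called without centring (adjusted p = 0.0929). In all 4 regions the lines did not overlap, as in every called region. The calls at Ikzf3 and Bach2 were lost without N replicate 1 (limma, adjusted p = 0.135 and 0.215) and without N replicate 2 (0.0877 and 0.109), and that at Ets1 without C replicate 1 (0.0723) and without N replicate 2 (0.149).

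Foxo1, which encodes the forkhead factor that drives Rag expression and is restrained by PI3 kinase, had 25 regions, of which 6 were N-only and none C-only. The strongest N-only region, chr3:52189229-52189563, had 13.6 and 13.8 in the N libraries. Others were chr3:52282823-52283163 with 7.81 and 12.7 and chr3:52335506-52335783 with 11.9 and 5.26, and the remaining 3 had values of 3.27 to 6.4. The region at the lower end of the gene span, chr3:52267832-52268559, was shared, with 20.1 and 18.8 in C and 14.5 in both N libraries, and was not called (log2 ratio -0.52; limma, adjusted p = 0.128). A shared region at chr3:52422826-52423178 had 5.95 and 5.26 in C and 12.4 and 15.5 in N, and was not called either (log2 ratio 1.21; limma, adjusted p = 0.0541). The line-only regions of Foxo1 were weaker than its strongest shared region, which had 28.2 and 26.0 in C and 23.1 and 22.3 in N. Foxo1 was singled out after its values were seen, as a gene with many line-only regions in 1 direction.

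Pre-B cell receptor signalling genes had 25 N-only and 21 C-only regions of 275 (9.09% and 7.64%), over 13 and 10 of 20 genes. Of their 132 shared regions, 1 was called higher in N and 3 higher in C, where 1.24% and 0.763% of all shared regions were. Blnk, the adaptor between SYK and its effectors, had a region 13.1 kb from the gene with 5.47 and 5.52 in C and 15.7 and 14 in N, a log2 ratio of 1.33 (limma, adjusted p = 0.0348). Pik3ap1, the adaptor BCAP that recruits PI3 kinase, had one with 14.7 and 15.9 in C and 7.18 and 7.14 in N, a log2 ratio of -1.19 (limma, adjusted p = 0.0454). Rasgrp1, a Ras activator, had 20.2 and 18.7 in C and 10.7 and 11.3 in N inside the gene, a log2 ratio of -0.92, and Lyn, a Src family kinase, had 24.4 and 23.5 in C and 18.1 and 16 in N, a log2 ratio of -0.58 (limma, adjusted p = 0.0451 for both). Without centring Rasgrp1 and Lyn were no longer called (limma, adjusted p = 0.0530 and 0.0800). Blnk, Pik3ap1, Rasgrp1 and Lyn all lost the call without N replicate 1 (limma, adjusted p = 0.134, 0.144, 0.126 and 0.0781) and without N replicate 2 (limma, adjusted p = 0.112, 0.131, 0.0869 and 0.142). Rasgrp1 and Lyn also lost it without C replicate 1 (limma, adjusted p = 0.0665 and 0.0514).

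Among B lineage surface and EBF1 target genes, line-only regions of both kinds were found and no called region. Of 141 regions over 25 genes, 5 were N-only (3.55%) and 4 C-only (2.84%), over 2 and 4 of the genes. None of their 80 shared regions was called, where 2.01% of all shared regions were. Shared regions of Blk, a Src family kinase gene, had a median log2 ratio of -0.93. The N-only regions were 1 near Cr2, a complement receptor gene, with 5.96 and 14.1, and 4 at Gfra2 alone. Of those at Gfra2, 1 inside the gene had 10.2 and 6.43. C-only regions were found 83.7 kb from Cd24a with 8.45 and 10.5 and inside Cplx2 with 5.88 and 7.23.

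The surrogate light chain genes, whose products form part of the pre-B cell receptor, were examined together with Vpreb3. None had a called region, where 2.01% of all shared regions were called. At Igll1 the main region (chr16:16863825-16864407) had 18.6 and 17.1 in C and 19.8 and 18.7 in N, with a log2 ratio of 0.01 ± 0.142 (SE; limma, adjusted p = 0.971). Its single C-only region was weak, at 2.56 and 3.06. Vpreb1 had 8.78 and 8.31 in C and 10.4 in both N libraries, with a log2 ratio of 0.18 ± 0.266 (SE; limma, adjusted p = 0.751). The strongest region of Vpreb2 had 25.4 and 24.0 in C and 25.3 and 26.6 in N, with a log2 ratio of -0.02 ± 0.0916 (SE; limma, adjusted p = 0.923). The 3 shared regions of Vpreb3 had log2 ratios of -0.19 to 0.11.

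Ebf1 itself had 30 regions in the gene and within 100 kb. Of these, 14 were shared and none was called, where 2.01% of all shared regions were. The N-only region, inside the gene (chr11:44779017-44779333), had 9.38 and 8.67, and was listed again in both N dTAG-13 libraries at 5.73 and 8.91 and in neither C library. The 2 C-only regions (chr11:44633071-44633334 and chr11:44656978-44657136) had 8.18 and 5.26, and 5.95 and 6.01. Pax5 had 21 regions, of which 9 were shared and not called and 1, 36.2 kb from the gene, was N-only with 6.39 and 6.43. The endogenous Ebf1 locus is read here as chromatin only, since the protein comes from the exogenous gene.

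Interleukin 7 signalling, cell cycle and survival genes had 17 N-only (8.29%) and 9 C-only (4.39%) of 205 regions, over 8 and 8 of 21 genes. None of their 118 shared regions was called, where 2.01% of all shared regions were. Bcl2, the survival gene, had 2 N-only and 2 C-only regions, the strongest N-only with 10.3 and 9.995. C-only regions lay 67.2 kb from Myc with 14 and 8.82, 9.85 kb from Il7r, the receptor gene, with 8.36 and 11, and 40.7 kb from Bcl2l11, the gene of the death promoter BIM, with 8.96 and 6.18. Bcl2l11 also had 2 N-only regions. The Il7r region was listed again in both C dTAG-13 libraries, at 9.45 and 8.46, and in neither N library. At Myc, all 4 dTAG-13 lists held a peak.

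The list of tumour suppressor genes had 7 N-only and 1 C-only of 90 regions (7.78% and 1.11%), over 4 and 1 of 12 genes. This list also holds Mdm2, the gene of a p53 inhibitor and not a tumour suppressor, with 1 of the N-only regions. The Cdkn2a and Cdkn2b locus, which encodes the cell cycle inhibitors often lost from transformed cells, was present as shared peaks in both lines. The Cdkn2a region at chr4:89282009-89282472 had 17.4 and 13.4 in C and 13 and 17.1 in N, and the Cdkn2b region at chr4:89310492-89311315 had 20.3 and 19.2 in C and 20.5 and 17.2 in N. N-only were 1 region of Cdkn2a, with 10.4 and 13.3, and 4 of Cdkn2b, up to 12.2 and 11.2. Nf1, a Ras inhibitor gene, had a C-only region with 6.70 and 6.55. After dTAG-13 the Nf1 region was listed in both N libraries, at 5.94 and 6.49, and in neither C library. With genes assigned within 20 kb, 2 N-only and no C-only of 63 regions remained on this list.

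**Figure D4:**
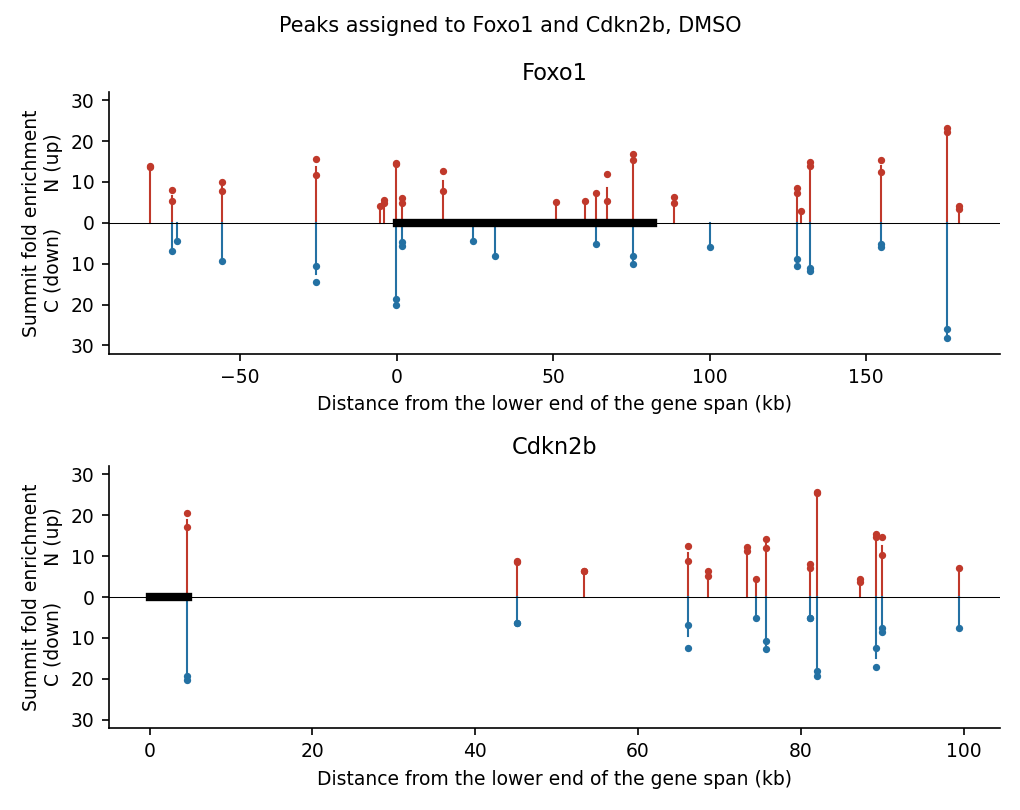
Summit fold enrichment (y axis; EBF1-dTAG_N upward in red, EBF1-dTAG_C downward in blue; points, libraries; lines, their mean where a peak is listed) of all regions assigned to Foxo1 and Cdkn2b, by distance in kb from the lower end of the gene span (x axis; black bar, gene span). Foxo1 has 6 and Cdkn2b 4 regions with peaks in both N lists and no C list, while the strongest peaks of both genes are seen in both lines.

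Recombination genes had 2 N-only and 2 C-only of 50 regions. Of their 23 shared regions, 1 was called, against 2.01% of all shared regions. That region lay inside Prkdc, the DNA-dependent protein kinase gene, with 23.9 and 18.9 in C and 12.8 and 9.28 in N, a log2 ratio of -1.06 ± 0.213 (SE; limma, adjusted p = 0.0349). It was not called without C replicate 1 or N replicate 2 (limma, adjusted p = 0.0668 and 0.0815). Lig4, the end joining ligase gene, had an N-only region with 6.74 and 7.02. Polm and Xrcc5 had C-only regions with 10.9 and 6.01, and 6.90 and 6.01. After dTAG-13 the Xrcc5 region was listed in both lines, at 8.66 and 10.7 in C and 8.16 and 12.4 in N. MHC class II genes had 3 N-only and 3 C-only of 47 regions. Inside Ciita, the transactivator of the class, a C-only region had 10.4 and 11.8, and inside H2-Oa one had 7.29 and 5.49. N-only regions lay near H2-Ob with 8.17 and 10.2 and near Cd74, the invariant chain gene, with 8.43 and 9.47. Cd74 also had the third C-only region of the list. The median log2 ratio at the 32 shared MHC regions was -0.18.

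Inducible NF-kB and AP-1 genes had 5 N-only and 5 C-only of 106 regions. None of their 58 shared regions was called, where 2.01% of all shared regions were. Inside Nfkb1 an N-only region had 17.1 and 13.4, and was listed again in both N dTAG-13 libraries, at 14.3 and 20.6, and in neither C library. Inside Rel a C-only region had 9.27 and 14.3. N-only regions near Jun and Fos had 5.68 and 9.28, and 6.90 and 7.93. After dTAG-13 the Jun region was listed in both N libraries, at 5.94 and 12.3, and in neither C library. The Fos region was then listed only in C replicate 1, at 8.74. Stage and stem markers had 8 N-only and 7 C-only of 123 regions, with N-only values of 8.99 and 4.89 near Cd34 and C-only values of 9.67 and 10.5 at Meis1, 9.86 and 6.41 near Cxcr4 and 9.15 and 6.01 at Enpep, the BP-1 antigen gene.

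Markers of other cell types had regions of both kinds. T and innate lymphoid markers had 6 N-only (9.84%) and 1 C-only (1.64%) of 61 regions, over 5 and 1 of 20 genes. N-only were a region near Notch1 with 14.1 and 14.6, one inside Cd4 with 13.2 and 10.0, one at a start of Tcf7 with 7.1 and 8.03 and one near Zap70 with 5.83 and 7.84. The Cd4, Notch1 and Zap70 regions were in no dTAG-13 list. Myeloid markers had 4 N-only and 7 C-only of 46 regions, with C-only regions inside Itgam (8.80 and 11.2) and Csf1r (10.4 and 6.08) and an N-only region near Cebpb (10.8 and 13.3). Erythroid and megakaryocyte markers had 3 N-only and 4 C-only of 36 regions, with C-only regions inside Epor (8.74 and 10.3) and near Pf4 (6.07 and 6.04), and an N-only region at a start near Zfpm1 (5.77 and 6.53). None of the shared regions of these 3 lists (32, 16 and 14) was called, where 2.01% of all shared regions were. Among 8 Y-linked genes, 5 had a region. Of these 5 regions, 2 were shared, and none was line-only or called. Among 16 housekeeping genes, 1 N-only and no C-only region was found, and a region 45.2 kb from Ywhaz was called higher in N, with 15.6 and 13.8 in C and 27.0 and 26.6 in N (log2 ratio 0.77; limma, adjusted p = 0.0230). The Ywhaz call was lost without N replicate 1 or 2 (limma, adjusted p = 0.0927 and 0.130).

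Line-only regions were spread over the autosomes and X. There the N-only share ran from 4.64% of regions on chromosome 16 to 6.73% on chromosome 6, and the C-only share from 4.04% on chromosome 17 to 7.36% on chromosome 18. The median log2 ratio at shared regions ran from -0.07 on chromosome 19 to -0.03 on chromosome 18. The Y chromosome held 15 regions, of which 0 were N-only, 1 was C-only and 4 were shared, with a median log2 ratio of 0.08. Stretches of at least 5 consecutive regions with a peak in at least 1 list of 1 line and in no list of the other numbered 39 for N and 107 for C, and of at least 10 regions 2 and 5. Most of their regions were in a single list: 99 of 224 regions in N stretches and 241 of 649 in C stretches had a peak in both lists. Regions in a single list were also more numerous in C over the whole genome (8962, against 6298 in N), and their part in the stretches was not tested. The longest N stretches were chr9:90185421-92220493 with 11 regions (7 in both lists) near Adamts7, Tbc1d2b and Plscr5, chr5:48959902-50358856 with 10 (4 in both) at Kcnip4, and chr16:89517771-90138460 with 9 (5 in both) near Tiam1. The longest C stretches were chr1:120416082-121137127 with 13 regions (5 in both lists) near Marco, chr5:15463721-19892008 with 12 (8 in both) at genes including Cd36 and Magi2, and chr1:85120311-85344306 with 11 (4 in both).

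Other genes held many line-only regions, and were chosen by that count after the values were seen. Galnt14, a glycosyltransferase gene, had 7 N-only and 2 N-higher of 30 regions and no C-only region. Luzp2 had 6 N-only of 13 regions, and S1pr3, a sphingosine phosphate receptor gene, had 5 N-only and 1 N-higher of 8. On the C side, Pid1 had 6 C-only of 7 regions, Gnao1, a G protein subunit gene, 6 of 16, and Eps8, an actin and receptor kinase signalling gene, 5 of 7. None of these 3 genes had an N-only region.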

How the data were processed

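ATAC-seq peak lists of 4 DMSO and 4 dTAG-13 libraries (2 per line and treatment) and the authors' table of each line were used. Per the labels, 50000 cells went into a reaction. Builds GRCm38 and mm10, edgeR 3.32.0, MACS2 2.2.7.1, Bowtie2 2.3.5.1, deepTools 3.3.2 and SAMtools 1.10 are listed in the processing notes of the submitters; the sources used here give no filters, Tn5 shift or scaling. The authors deposited 1 peak list per library, with −log10 q-values, −log10 p-values and the ratio of the summit to local background (fold enrichment), all the authors' own values. The authors' deposited tables give log2 fold changes and adjusted p-values from comparisons that share the DMSO libraries.

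Values at shared regions (highest summit per list) were log2 transformed, centred on each library's median over shared regions and fitted over all 26863 regions with limma 3.58.1 in R 4.3.3 (moderated test with a mean trend, two-sided, Benjamini-Hochberg adjustment, called under 0.05). On simulated ratios at these 26863 regions, 78% of changes of log2 1 and 100% of changes of log2 2 were recovered. Of unchanged regions, 0.0338% were called. These shares hold for the spread that the ratios were given, and recovery under another spread was not tested. Recovery without the mean trend, a setting in which no region of the data was called, was not tested. Recovery with 1 library left out was not tested either. The ratio is over local background, which rises with a peak, so it understates a change in pileup. Pileup and background were solved from the deposited values for at least 99.7% of peaks per list (relative tolerance 1e-04). Read depth is unknown, so no counting interval is given.

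Genes are RefSeq spans (21896 protein-coding, without exons) from GRCm38.p6, which matches the files; starts come from a RefSeq promoter table that is not complete. Named regions are the 8 strongest line-only regions per line by the weaker library, the 8 shared regions per direction with the smallest adjusted p and an absolute log2 ratio of at least 1 without overlap, 1 per nearest gene, up to 4 genes per list, Ebf1, Pax5 and the surrogate light chain genes, and the 3 longest stretches per line. The 14 lists hold 233 genes. The classes and lists were chosen with earlier results of these data known. Names inside the lists give some replicates other numbers than the titles do; the titles were followed. Alternatives were scaling, pseudocount, filters, pileup, a replicate block, overlap rules and leaving out each library. Sequence of the peaks away from listed starts was not used here. Some genes that this rule names are not reported here.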

Additional observations from a re-analysis of the deposited data

How the results depend on the processing

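The difference in peak number (-400) turned to 1869.5 and 2447 with −log10 q of at least 5 and 10, and ran from -1249.5 to 449.5 with 1 library left out. N-only counts ran from 5090 to 7061 and C-only counts from 4372 to 7993 with 1 library left out, because 1 list then stood for a line, and C-only regions fell to 1645 with −log10 q of at least 10. Of the other N-only and C-only counts, with equal numbers of best peaks or a stricter overlap, all stayed within 1.5 times.

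Regions called higher in N and C numbered 630 and 140 without centring, 0 and 0 without the mean trend (4517 at an unadjusted p under 0.05), 1730 and 1438 from the summit pileup, and 34 to 1300 and 119 to 601 with 1 library left out. Replicate numbers were not used as a pairing. The deviations of same-numbered libraries had a correlation of 0.0105. Some replicate numbers differ between titles and lists, so this value cannot exclude a pairing. A fit with the replicate number as a block called 617 and 397 regions, against 334 and 205 without it. The cause of these higher counts was not tested. A pseudocount, a filter, quantile scaling or stricter summits gave 281 to 402 and 166 to 223. Of 26 named shared regions, none changed sign. With 1 library left out the sign could not change, because the lines do not overlap in any called region. The call was lost by 26 without the trend, 3 without centring and 2 with quantile scaling, and by some with 1 library left out.

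For alternatives chosen after seeing the data, the mean share of N-higher regions with a dTAG-13 peak was 68.1% in N and 48.4% in C when called from the pileup, and 28.6% in C for an absolute log2 ratio of at least 1. For C-higher regions it was 96.9% in C from the pileup, and 86.9% in N and 94.3% in C for that ratio. Presence of a peak is a threshold, and with 2 libraries per line no permutation p can go below 0.333.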
